A study of Mus musculus with 15 samples.

Results

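The heat shock chaperones described here are 10 genes: Hspa1a, Hspa1b, Hspa8, Hsph1, Dnajb1, Hspb1, Hsp90aa1, Hsp90ab1, Hspd1 and Hspe1. The rule is by name: the rows of the count table whose gene ID maps to one of these mouse symbols. All 10 were found among 39827 genes read, and all 10 were among the 15948 genes with enough counts to be tested.

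RNA was measured by RNA-seq in 15 libraries of leukemic T cells from mouse spleen, 3 in each of 5 groups. All groups carry delta E-NOTCH1, a NOTCH1 receptor lacking most of its outer part that signals without ligand, introduced by retrovirus into bone marrow progenitors that were then given to lethally irradiated C57BL/6J hosts. The study asked how loss or inhibition of BCAT1, the cytosolic enzyme that transfers the amino group of branched-chain amino acids, alters gene expression in this leukemia. The 3 groups of BCAT1 WT genotype were WT0 with PBS, WT0 with the BCAT1 inhibitor ERG-245 (3 intraperitoneal doses of 30 mg/kg, 8 h apart) and WT6. The 2 groups of BCAT1 knock-out genotype were KO 7 and KO 3, written KO7 and KO3 below. WT6, KO7 and KO3 received PBS as well according to the labels, while the alignment names of the 3 WT0 PBS libraries in the count table contain DMSO. The numbers are read here as names of separate leukemias, so that each genotype is seen in 2 of them, and the labels do not say whether the 3 libraries of a group are separate mice. The p-values from single libraries therefore rest on variation among a group's libraries, part or all of which may be technical. No ages are given in the sources used here.

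Heat shock chaperones bind unfolded or newly made proteins and help them fold, stay soluble or reach degradation. The HSP70 proteins (Hspa genes) cycle on and off clients with the help of J-domain proteins such as DNAJB1, which stimulate their ATPase, and of exchange factors such as HSPH1, which release ADP; HSP90 takes over partly folded kinases and receptors, small heat shock proteins hold unfolded clients without ATP, and HSPD1 with its lid HSPE1 forms a folding chamber in mitochondria. On heat or proteotoxic stress the factor HSF1 forms trimers that bind inverted repeats of GAA, the heat shock elements, in front of the inducible genes, while HSPA8, HSP90AB1 and the mitochondrial pair are also made at high levels in unstressed, growing cells. HSF1 activity has been described as a dependency of NOTCH1-driven T cell leukemia.

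Total counts were 17441292 to 28902573 per library. Bcat1 was lower in both knock-outs, at 2.09 CPM ± 0.596 in KO7 and 6.95 ± 0.844 in KO3 (SD, n = 3) against 17.8 ± 0.955 in WT0 PBS and 35.2 ± 0.416 in WT6, and was 13.3 ± 0.774 with ERG-245. CPM relates a gene's count to the library's total after TMM scaling. T-lineage markers were expressed in every group, with a summed level of 12 genes of 3516 to 5758 CPM. Markers of other cells were at unequal levels. The summed level of 13 erythroid markers was 41072 CPM in WT0 PBS, 49904 with ERG-245 and 12124 in WT6, 58507 in KO7 and 11221 in KO3. That of 12 macrophage and monocyte markers was 1213, 1652, 2019.8, 3714 and 1563 CPM in the same order, and that of 12 B and plasma cell markers was 1435, 3612, 8726, 4165 and 3006 CPM. With ERG-245 the sum of 10 neutrophil markers was 5.1 CPM against 70.6 in WT0 PBS, and that of 9 platelet markers 42.9 against 189.9 CPM; these were 132 to 329 and 140.4 to 201 CPM in the other groups. In bulk RNA, more cells of a type and more RNA per cell cannot be told apart.

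The 10 genes spanned a wide range of expression. CPM per kb of merged exon takes gene length into account. The counting had no option for multi-mapping reads, so genes that share sequence with others may read too low on this scale. From 0% (Hsph1) to 74.8% (Hspa8) of a member's 50-base words recur in transcripts of other genes. On this scale Hsp90ab1 stood at 745 to 1068 over the group means and Hspa8 at 645 to 945, ranks 69 to 91 and 82 to 111 among 15948 genes. Hspe1 (176 to 365), Hsp90aa1 (168 to 271) and Hspd1 (121 to 180.2 CPM per kb) followed. Dnajb1 was at 31.6 to 44.5 and Hsph1 at 15.8 to 21.1 CPM per kb. The stress-inducible genes Hspb1 (0.137 to 3.39), Hspa1b (0.326 to 0.586) and Hspa1a (0.141 to 0.526 CPM per kb) were the lowest of the 10, Hspb1 at ranks 9377 to 14659 and the other two at ranks 12705 to 14863. Together the 10 genes took 0.565% ± 0.007 of counts in WT0 PBS, 0.541% ± 0.0002 with ERG-245 and 0.527% ± 0.0086 in WT6, 0.452% ± 0.0023 in KO7 and 0.628% ± 0.0068 in KO3 (SD, n = 3), so that the 2 knock-outs held the lowest and the highest share. Between groups the ratio of the highest to the lowest mean was 24.6 for Hspb1 and 3.73 for Hspa1a, 2.07 for Hspe1, and 1.34 to 1.79 for the other 7 genes.

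**Figure D1:**
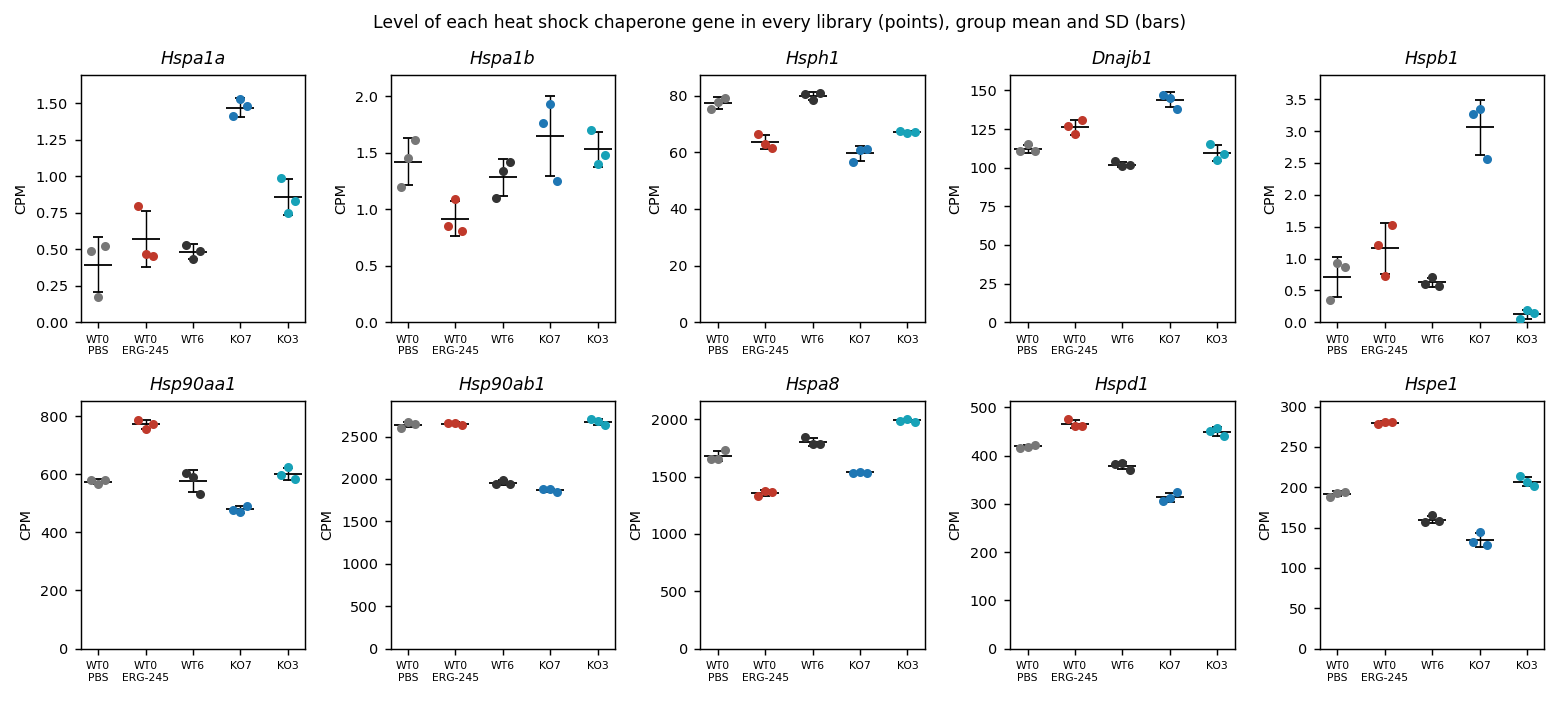
Level of the 10 genes in every library. Each panel has CPM on a linear axis from 0; points are the 3 libraries of a group, and bars give the group mean and SD. Hsp90aa1, Hspd1 and Hspe1 are highest with ERG-245, Hspa8 and Hsp90ab1 have their highest mean in KO3, and Hspa1a, Dnajb1 and Hspb1 are highest in KO7.

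In the comparison of WT0 ERG-245 with WT0 PBS, 5 members were higher (Hspb1, Hspe1, Hsp90aa1, Dnajb1, Hspd1) and 3 lower (Hspa1b, Hspa8, Hsph1) at an adjusted p under 0.05 by edgeR's quasi-likelihood test. Of all tested genes 65.8% passed there (33% higher, 32.8% lower), so 8 of 10 is close to that share. In KO7 against WT6, 3 members were higher (Hspb1, Hspa1a, Dnajb1) and 6 lower, where 68.9% of all genes passed (32.2% higher, 36.7% lower). In KO3 against WT6, 7 members were higher and 2 lower (Hspb1, Hsph1), where 59.7% passed (27.7% higher, 32% lower). The median log2 change of the 10 genes was 0.16 with ERG-245, -0.15 in KO7 and 0.19 in KO3, beside -0.001, -0.026 and -0.019 over all tested genes. The comparisons of KO7 and KO3 share the WT6 libraries.

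Against the other wild type, WT0 PBS, KO7 again had 3 members higher and 6 lower (69.4% of all genes passed, 34.5% higher and 34.9% lower), with a median of -0.20. KO3 had 5 higher and 2 lower (66.6% passed, 34.1% higher and 32.4% lower), with a median of 0.09; 3 were higher without WT0 PBS replicate 2. The 2 wild types also differed: in WT6 against WT0 PBS 1 member was higher (Hspa8) and 4 were lower (Hsp90ab1, Hspe1, Hspd1, Dnajb1), where 72.5% of all genes passed (36.8% higher, 35.6% lower); 2 were higher without WT6 replicate 3. The median absolute log2 difference of the members was 0.15 there, beside 0.38 for all genes. In KO3 against KO7, 6 members were higher and 3 lower, where 70.7% passed (36.1% higher, 34.6% lower), and the median absolute difference was 0.46 for the members beside 0.37 for all genes. So the members differed more between the 2 knock-outs than between the 2 wild types, a description with no test.

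**Figure D2:**
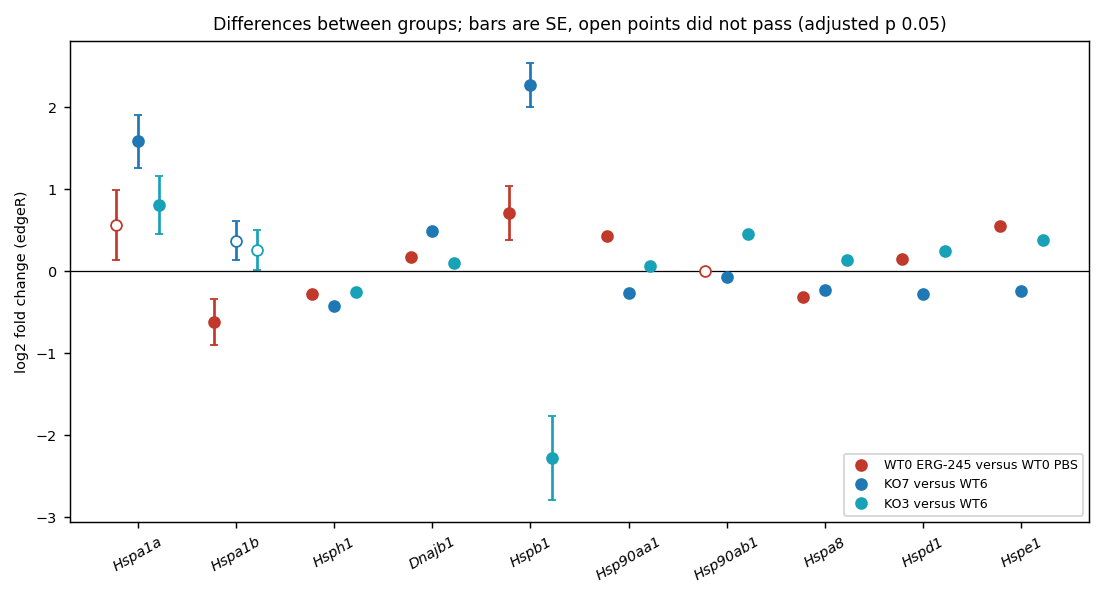
Log2 fold change of each gene for ERG-245 against PBS in WT0 and for KO7 and KO3 against WT6, with bars of 1 SE; open points did not pass an adjusted p of 0.05. Hsph1 lies below 0 in all 3 comparisons, while Hspb1, Hspa8, Hsp90ab1, Hsp90aa1, Hspd1 and Hspe1 lie on opposite sides of 0 in KO7 and KO3.

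Hspa1a and Hspa1b encode the stress-inducible cytosolic HSP70 and are neighbouring, near-identical copies on the minus strand of chromosome 17 (GRCm38.p6, chr17:34969359-34972156 and chr17:34956429-34959238, both protein-coding). Their 250 bases upstream of the start, from RefSeq's promoter windows on GRCm38.p6, are shown for a match to the heat shock element and for their likeness. Capitals mark the match, here GAANNTTC, which begins 104 bases before the start. Binding of HSF1 to it was not measured. The upstream sequences of the copies differ at 3 of 250 positions (98.8% identity).
Hspa1a, chr17:34972157-34972406, minus strand: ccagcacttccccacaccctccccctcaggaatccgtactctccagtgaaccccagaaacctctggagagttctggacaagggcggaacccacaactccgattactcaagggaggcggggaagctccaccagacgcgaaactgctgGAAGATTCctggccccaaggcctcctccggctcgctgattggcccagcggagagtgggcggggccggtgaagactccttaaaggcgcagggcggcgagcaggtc
Hspa1b, chr17:34959239-34959488, minus strand: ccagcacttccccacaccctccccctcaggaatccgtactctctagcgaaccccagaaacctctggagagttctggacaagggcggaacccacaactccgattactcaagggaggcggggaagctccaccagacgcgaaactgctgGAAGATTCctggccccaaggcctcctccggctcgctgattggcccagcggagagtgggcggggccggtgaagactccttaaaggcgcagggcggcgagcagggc
Of the 50-base words of their transcripts 66.3% and 62.3% also occur in another gene's transcript, led by the other copy, so single-copy levels depend on how shared reads were treated and are uncertain.

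Both copies were at low levels in all 5 groups. Hspa1a stood at 0.488, 0.176 and 0.519 CPM in WT0 PBS (11, 4 and 9 counts), 0.794, 0.469 and 0.456 with ERG-245 and 0.532, 0.432 and 0.487 in WT6, 1.41, 1.53 and 1.48 in KO7 (28, 27 and 26 counts), and 0.991, 0.747 and 0.83 in KO3. Every KO7 library was above every other library, and every KO3 library was above those of WT6 and WT0 PBS. Hspa1a was 3-fold higher in KO7 than in WT6 (log2 1.58, SE 0.32, edgeR adjusted p = 1.24e-05) and 3.78-fold higher than in WT0 PBS (adjusted p = 2.08e-06). In KO3 it was 1.75-fold higher than in WT6 (log2 0.81, SE 0.35, edgeR adjusted p = 0.0394), a call lost with DESeq2 (0.0675), with no low-count filter (0.0577), and without WT6 replicate 1 (0.0564), 2 (0.104) or 3 (0.0689) or KO3 replicate 1 (0.138) or 3 (0.0665). Against WT0 PBS it was 2.21-fold higher in KO3 (adjusted p = 0.00715), lost without WT0 PBS replicate 2 (0.0967), the library with 4 counts. KO3 was below KO7 (log2 -0.78, adjusted p = 0.0182), lost without KO3 replicate 2 (0.0683). With ERG-245 the log2 difference was 0.56 (SE 0.43, adjusted p = 0.246).

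Hspa1b varied less. It was at 1.2, 1.45 and 1.61 CPM in WT0 PBS, 0.847, 1.09 and 0.81 with ERG-245 and 1.1, 1.34 and 1.42 in WT6, 1.76, 1.93 and 1.25 in KO7, and 1.7, 1.4 and 1.48 in KO3. The ERG-245 libraries were the lowest of all 15, and the other groups overlapped. The log2 difference with ERG-245 was -0.62 (SE 0.28, edgeR adjusted p = 0.0443); it missed the threshold with DESeq2 (0.0746), with no low-count filter (0.0504), and without WT0 PBS replicate 2 (0.0964) or 3 (0.128) or ERG-245 replicate 1 (0.113) or 3 (0.135). In KO7 and KO3 against WT6 it was 0.37 (SE 0.24, adjusted p = 0.165) and 0.26 (SE 0.24, adjusted p = 0.356).

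Summing the copies removes the choice between them but does not restore shared reads left uncounted. The summed level was 1.82 CPM ± 0.276 in WT0 PBS, 1.49 ± 0.198 with ERG-245 and 1.77 ± 0.138 in WT6, 3.12 ± 0.37 in KO7 and 2.38 ± 0.279 in KO3 (SD, n = 3). The sum was 1.77-fold higher in KO7 than in WT6 (edgeR adjusted p = 8.6e-05) and 1.74-fold higher than in WT0 PBS (adjusted p = 0.000256). In KO3 it was 1.35-fold the WT6 level (adjusted p = 0.0453) and 1.33-fold the WT0 PBS level (adjusted p = 0.0685). The call against WT6 was lost without WT6 replicate 1 (0.136) or 2 (0.0744) or KO3 replicate 1 (0.181) or 3 (0.0629), and one against WT0 PBS appeared without WT0 PBS replicate 3 (0.0366). The summed level with ERG-245 differed by -0.27 (log2, adjusted p = 0.297). Hspa1a made up 21.4% of the sum in WT0 PBS, 38.4% with ERG-245 and 27.7% in WT6, 47.1% in KO7 and 35.9% in KO3. Immediate early genes, which respond to handling of tissue, had a summed level over 15 genes of 610.3, 498, 925, 1029 and 694 CPM in WT0 PBS, ERG-245, WT6, KO7 and KO3. Btg2 alone made up 601 CPM of the KO7 sum. Jund (93.6 CPM), Zfp36 (63.5), Dusp1 (37.1) and Atf3 (3.83) were also highest in KO7. Fos (3.05 CPM in KO7, 3.27 in WT6) and Egr1 (35 and 53.9 CPM) were not. Of the 15 genes, 6 were higher and 6 lower in KO7 than in WT6, and 2 higher and 12 lower in KO3. Against WT0 PBS, 11 were higher and 1 lower in KO7, and 9 higher and 3 lower in KO3. The part of these 15 genes in the Hspa1a result was not tested.

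Hspa8 (chr9:40801276-40805202, plus strand) is the constitutive cytosolic HSP70, which also uncoats clathrin vesicles. It stood at 1657, 1656 and 1729 CPM in WT0 PBS, 1331, 1374 and 1366 with ERG-245 and 1843, 1786 and 1780.5 in WT6, 1531, 1543 and 1533 in KO7, and 1983, 2004 and 1979.7 in KO3. No 2 groups overlapped, in the order KO3, WT6, WT0 PBS, KO7 and ERG-245. Hspa8 was 1.24-fold lower with ERG-245 (log2 -0.31, SE 0.022, edgeR adjusted p = 3.17e-21) and 1.17-fold lower in KO7 than in WT6 (log2 -0.23, SE 0.022, adjusted p = 1.23e-15), whereas it was 1.1-fold higher in KO3 than in WT6 (log2 0.14, adjusted p = 3.89e-08). Against WT0 PBS the log2 difference was -0.13 in KO7 and 0.24 in KO3. The small nucleolar RNAs Snord14c, Snord14d and Snord14e lie within Hspa8, and 74.8% of its 50-base words recur in transcripts of 13 other genes, so its absolute level is uncertain.

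Hsph1 (chr5:149616843-149636498, minus strand), the HSP110 exchange factor of HSP70, was the one member lower in all 3 main comparisons. It was at 75.3, 77.6 and 79.3 CPM in WT0 PBS and 80.7, 78.4 and 80.8 in WT6. With ERG-245 it was at 66.4, 62.8 and 61.6, in KO7 at 56.7, 60.7 and 61.3, and in KO3 at 67.5, 66.9 and 67.1 CPM. Every library with BCAT1 inhibited or deleted was thus below every WT0 PBS and WT6 library, a pattern noticed after the values were seen. How many of all tested genes have this pattern was not counted, so it is not shown to be particular to Hsph1. The log2 differences were -0.28 with ERG-245 (SE 0.039, edgeR adjusted p = 1.6e-09), -0.43 in KO7 (SE 0.038, adjusted p = 1.77e-16) and -0.25 in KO3 (SE 0.037, adjusted p = 1.04e-08) against WT6. Against WT0 PBS they were -0.38 in KO7 (adjusted p = 1.09e-13) and -0.20 in KO3 (adjusted p = 2.88e-06). The 2 wild types differed by 0.05 (SE 0.036, adjusted p = 0.225). None of its 50-base words occurs in another gene's transcript, so its counts do not depend on copies. KO3 and KO7 also differed from each other (log2 0.17, SE 0.04, adjusted p = 9.24e-05). Cd22, a receptor of B cells, moved with Hsph1: it was at 25 CPM in WT0 PBS and 30.5 in WT6, against 7.44 with ERG-245, 6.37 in KO7 and 11.8 in KO3. Of the 12 B and plasma cell markers 8 were lower and 4 higher with ERG-245, 11 lower and 1 higher in KO7 against WT6, and 10 lower and 1 higher in KO3 against WT6, but 5 lower and 5 higher in KO3 against WT0 PBS. Their part in the Hsph1 result was not tested.

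Dnajb1 (chr8:83608175-83612653, plus strand), the main inducible J-domain partner of HSP70, went against Hsph1. Its levels were 111, 115 and 111 CPM in WT0 PBS, 127, 122 and 131 with ERG-245 and 104, 101 and 102 in WT6, 147, 145 and 138 in KO7, and 115, 105 and 109 in KO3. KO7 was above all other groups, ERG-245 came next without overlap, and KO3 overlapped WT0 PBS. Dnajb1 was 1.13-fold higher with ERG-245 (log2 0.17, SE 0.033, edgeR adjusted p = 5.44e-06) and 1.41-fold higher in KO7 than in WT6 (log2 0.49, SE 0.032, adjusted p = 3.1e-23). In KO3 the log2 difference was 0.10 against WT6 (SE 0.033, adjusted p = 0.00643; 0.103 without KO3 replicate 1) and -0.04 against WT0 PBS (adjusted p = 0.346). Relative to Hspa8 within each library, Dnajb1 counts were 0.0668 ± 0.0028 in WT0 PBS, 0.0933 ± 0.0041 with ERG-245 and 0.0566 ± 0.00047 in WT6, 0.0935 ± 0.0031 in KO7 and 0.0551 ± 0.0029 in KO3 (SD, n = 3). That ratio of J-domain partner to HSP70 was thus highest with ERG-245 and in KO7, which overlapped. Erythroid markers were also highest in these 2 groups (49904 and 58507 CPM), and macrophage markers were highest in KO7 (3714 CPM); their part in the Dnajb1 result was not tested.

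The 250 bases before the Dnajb1 start hold neither GAANNTTC nor TTCNNGAA and are shown for contrast with the HSP70 copies above; capitals are absent because no element was found in this window.
Dnajb1, chr8:83607925-83608174, plus strand: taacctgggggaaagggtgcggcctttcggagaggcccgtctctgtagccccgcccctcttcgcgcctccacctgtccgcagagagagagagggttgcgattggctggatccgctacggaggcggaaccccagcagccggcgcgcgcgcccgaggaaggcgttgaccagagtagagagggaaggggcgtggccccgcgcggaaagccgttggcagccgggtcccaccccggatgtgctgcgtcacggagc

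Hspb1 (chr5:135887919-135889563, plus strand), the small heat shock protein known as HSP25 in mouse, showed the widest range. It was at 0.355, 0.925 and 0.865 CPM in WT0 PBS (8, 21 and 15 counts), 1.22, 0.729 and 1.52 with ERG-245 and 0.598, 0.708 and 0.576 in WT6 (18, 18 and 13 counts), 3.27, 3.35 and 2.56 in KO7 (65, 59 and 45 counts), and 0.0472, 0.187 and 0.138 in KO3 (1, 4 and 3 counts). All KO7 libraries were above all others and all KO3 libraries below all others, while the 3 wild-type groups overlapped in part. Against WT6, Hspb1 was 4.84-fold higher in KO7 (log2 2.28, SE 0.27, adjusted p = 6.48e-12, edgeR) but 4.86-fold lower in KO3 (log2 -2.28, SE 0.51, adjusted p = 8.97e-05). Against WT0 PBS the log2 differences were 2.11 and -2.45. The 2 knock-outs differed by a log2 of -4.56 (KO3 minus KO7, SE 0.39, adjusted p = 9.89e-18). With ERG-245 the log2 difference was 0.71 (SE 0.33, adjusted p = 0.0497). That call was lost with DESeq2 (0.0769), with no low-count filter (0.0692), with the replicate block (0.0544), and without WT0 PBS replicate 1 (0.368) or ERG-245 replicate 1 (0.105) or 3 (0.294).

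Hspb1 and the erythroid markers had the same order of group means, KO7, ERG-245, WT0 PBS, WT6 and KO3. Alas2, the heme synthesis enzyme of red cell precursors, was at 2105, 1391, 1129.9, 333 and 357 CPM in that order of groups. The 12 stroma and endothelium markers summed to 743, 770.2, 785, 681 and 650.2 CPM. The part of other cell types in the Hspb1 result was not tested. Of its 50-base words 51.6% recur elsewhere, led by the pseudogene Hsp25-ps1, so its level is uncertain too. The 250 bases before its start are shown because they hold 2 elements of the form GAANNTTC (capitals), which begin 117 and 97 bases before the start.
Hspb1, chr5:135887669-135887918, plus strand: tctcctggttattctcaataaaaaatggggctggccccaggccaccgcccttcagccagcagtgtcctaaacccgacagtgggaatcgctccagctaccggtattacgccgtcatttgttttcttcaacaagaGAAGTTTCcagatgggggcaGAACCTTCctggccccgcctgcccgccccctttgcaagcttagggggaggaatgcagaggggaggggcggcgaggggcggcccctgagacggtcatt

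Hsp90aa1 (chr12:110691036-110696395, minus strand), the inducible cytosolic HSP90, rose most with the inhibitor among the abundant members beside Hspe1. It was at 580.1, 565 and 579 CPM in WT0 PBS, 788, 755 and 773 with ERG-245 and 605, 589 and 533 in WT6, 477, 469 and 490.2 in KO7, and 598, 625 and 582 in KO3. ERG-245 libraries lay above all others and KO7 libraries below all others, while WT6 overlapped both WT0 PBS and KO3, which lay apart from each other by a narrow margin (580.1 and 582 CPM). It was 1.34-fold higher with ERG-245 (log2 0.43, SE 0.027, edgeR adjusted p = 2.27e-24) and 1.2-fold lower in KO7 than in WT6 (log2 -0.27, SE 0.027, adjusted p = 1.99e-14). The KO3 difference of 0.06 from WT6 (adjusted p = 0.0376) was lost with DESeq2 (0.206) and without WT6 replicate 3 (0.671) or KO3 replicate 2 (0.271). That from WT0 PBS, 0.07 (adjusted p = 0.0262), was lost with DESeq2 (0.19) and without WT0 PBS replicate 2 (0.0843) or KO3 replicate 2 (0.191).

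Hsp90ab1 (chr17:45567778-45573261, minus strand), the constitutive HSP90, fell into 2 levels. It was at 2605, 2667 and 2646 CPM in WT0 PBS, 2656, 2665 and 2640.5 with ERG-245 and 2712, 2678 and 2641 in KO3, which overlapped. It was at 1943, 1986 and 1941 in WT6 and 1877, 1879 and 1846 in KO7, with KO7 below WT6. With ERG-245 the log2 difference was 0.008 (SE 0.021, edgeR adjusted p = 0.757). Hsp90ab1 was 1.37-fold higher in KO3 than in WT6 (log2 0.45, SE 0.021, adjusted p = 1.58e-31), but KO3 differed from WT0 PBS by 0.021 (SE 0.021, adjusted p = 0.399). The 2 wild types differed by -0.43 (WT6 minus WT0 PBS, adjusted p = 1.05e-30), so the size of a knock-out difference depended on the wild type it was set against. KO7 was lower than WT0 PBS by a log2 of -0.50 (adjusted p = 4.07e-34) and than WT6 by -0.07 (adjusted p = 0.00387), the latter lost when the 2 groups were fitted alone (0.135).

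The inducible to constitutive HSP90 ratio, Hsp90aa1 counts over Hsp90ab1 counts, was 0.218 ± 0.0055 in WT0 PBS, 0.291 ± 0.0069 with ERG-245 and 0.294 ± 0.018 in WT6, 0.256 ± 0.0083 in KO7 and 0.225 ± 0.0074 in KO3 (SD, n = 3). With ERG-245 all 3 libraries (0.297, 0.283, 0.293) lay above those of WT0 PBS (0.223, 0.212, 0.219). Both knock-outs (KO7 at 0.254, 0.249 and 0.266, KO3 at 0.22, 0.233 and 0.22) lay below WT6 (0.311, 0.297, 0.275). Against WT0 PBS, however, KO7 was above and KO3 overlapped, and the wild types themselves did not overlap, so the side on which KO7 stood depended on the wild type.

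Hspd1 and Hspe1 encode the mitochondrial chaperonin HSP60 and its lid HSP10 from neighbouring genes that point away from each other on chromosome 1 (chr1:55077833-55088243, minus strand, and chr1:55088148-55091317, plus strand); their annotated first exons overlap by 96 bases on opposite strands, and the counting used strand. The 30 bases below lie in their shared start region, before the Hspe1 start and inside an annotated Hspd1 exon. They are shown because they hold 3 overlapping elements (TTCNNGAA, GAANNTTC, TTCNNGAA), in capitals.
Hspe1, chr1:55088053-55088082, plus strand: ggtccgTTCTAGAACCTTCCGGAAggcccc

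Hspd1 was at 415, 417 and 423 CPM in WT0 PBS, 476, 462 and 461 with ERG-245 and 383, 384 and 371 in WT6, 305, 313 and 324 in KO7, and 452, 458 and 440.3 in KO3. Hspe1 was at 188, 193 and 194 CPM in WT0 PBS, 278, 281 and 281 with ERG-245 and 157, 165 and 158 in WT6, 132, 145 and 128 in KO7, and 214, 207 and 202 in KO3. Both genes had the order ERG-245, KO3, WT0 PBS, WT6 and KO7, with no overlap between neighbours. With ERG-245, Hspe1 was 1.46-fold higher (log2 0.55, SE 0.028, edgeR adjusted p = 5.56e-29) and Hspd1 1.11-fold higher (log2 0.16, SE 0.023, adjusted p = 1.49e-08).

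Against WT6 both genes of the pair were lower in KO7, by log2 -0.27 for Hspd1 (adjusted p = 5.25e-17) and -0.24 for Hspe1 (adjusted p = 8.32e-11, edgeR). Both were higher in KO3, by 0.25 for Hspd1 (adjusted p = 1.33e-15) and 0.38 for Hspe1 (adjusted p = 9.22e-20, edgeR). Against WT0 PBS the directions were the same, -0.41 and -0.50 in KO7, and 0.10 and 0.11 in KO3 for Hspd1 and Hspe1. The deletions therefore did not share a direction for the mitochondrial pair. The 44.8% of 50-base words of each gene that recur in other transcripts leave their absolute levels uncertain.

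Counts of Hspe1 over those of Hspd1 were 0.458 ± 0.0057 in WT0 PBS (0.452, 0.463, 0.459), 0.601 ± 0.015 with ERG-245 (0.584, 0.608, 0.611) and 0.421 ± 0.01 in WT6 (0.41, 0.429, 0.426), 0.43 ± 0.034 in KO7 (0.433, 0.463, 0.395), with 0.461 ± 0.011 in KO3 (0.473, 0.452, 0.458; SD, n = 3). The ratio was apart from all other groups with ERG-245 only, among these 5 groups. WT6 and KO7 overlapped, as did WT0 PBS and KO3. KO3 was above WT6 without overlap, by less than ERG-245 was above WT0 PBS.

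**Figure D3:**
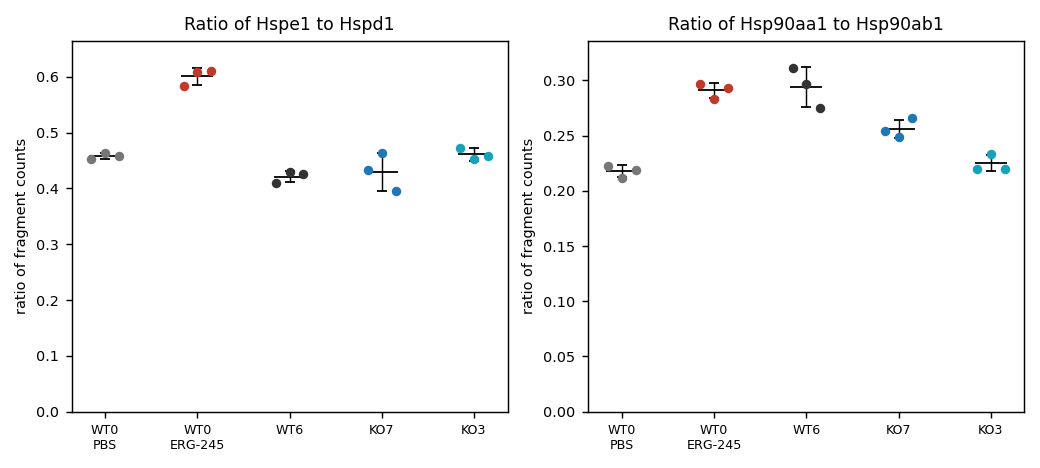
Count of Hspe1 over that of Hspd1 (left) and of Hsp90aa1 over that of Hsp90ab1 (right) in each library. Points are libraries, bars the group mean and SD, and axes start at 0; with ERG-245 the left ratio is 0.584 to 0.611, above all other libraries, and the right ratio is above WT0 PBS but overlaps WT6.

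Windows of 300 bases around annotated starts (250 before, 50 after) were at hand for 7 of the 10 members in RefSeq's promoters. GAANNTTC and TTCNNGAA, each its own reverse complement and so read on both strands, were searched in them. An element was found for 6 of the 7 genes, all but Dnajb1, and a run of overlapping repeats, in which either form is extended by one more unit, for Hspd1, Hspe1 and Hsph1. Of 32851 such windows of all genes, 15.1% held either form and 0.603% the longer one. The members with the longer form moved in different directions: with ERG-245 Hspe1 and Hspd1 were higher and Hsph1 lower. A match is a description of letters in these windows.

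The mRNA of the factors themselves also differed. Hsf1, the main heat shock factor, had means of 65.2 CPM in WT0 PBS, 47.3 with ERG-245 and 51.1 in WT6, 49.2 in KO7 and 52.3 in KO3. It was lower with ERG-245 (log2 -0.46, SE 0.044, edgeR adjusted p = 1.7e-15) and did not pass against WT6 in KO7 (-0.05, adjusted p = 0.3) or KO3 (0.04, adjusted p = 0.485). Against WT0 PBS it was lower in KO7 (-0.41, adjusted p = 2.98e-13) and KO3 (-0.32, adjusted p = 4.26e-10), as it was in WT6 (-0.35, adjusted p = 4.03e-12). Hsf2 was lower with ERG-245 (log2 -0.66, adjusted p = 8.3e-09), in KO7 (-0.47, adjusted p = 1.11e-06) and in KO3 (-0.35, adjusted p = 0.000101), both against WT6. Against WT0 PBS, Hsf2 did not pass in KO7 (-0.16, adjusted p = 0.101) or KO3 (-0.05, adjusted p = 0.644). Of 15 other genes commonly listed as HSF1 targets, 9 were higher and 4 lower with ERG-245, 6 higher and 7 lower in KO7, and 8 higher and 4 lower in KO3 against WT6, with median log2 changes of 0.12, -0.05 and 0.12.

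The cochaperones of HSP70 and HSP90 were examined as lists, with no test of a list as a set. Of all tested genes, 33% were higher and 32.8% lower with ERG-245. The shares were 32.2% and 36.7% in KO7, and 27.7% and 32% in KO3, both against WT6. The list counts below, and those of the HSF1 targets above, stand beside these shares. Several lists passed at close to the share of all genes, so their counts alone do not set them apart. Some genes are counted in several lists, so the lists are not separate sets. Hspa9 is in both the mitochondrial and the other HSP70 list, and Chordc1 is among both HSP90 cochaperones and HSF1 targets. Of 14 HSP40 genes, 7 were higher and 2 lower with ERG-245, 7 higher and 4 lower in KO7, and 3 higher and 8 lower in KO3. Dnajb2, a J-domain protein with ubiquitin-binding motifs, was at 81.1 CPM in WT0 PBS and 129.8 with ERG-245 (log2 0.68, edgeR adjusted p = 5.82e-28), and at 21.1 in WT6, 74 in KO7 (log2 1.80, adjusted p = 4.55e-48) and 22.1 in KO3. Dnajb4 was at 52.9, 66.5, 29.7, 70.1 and 26.2 CPM and Dnaja4 at 37.9, 37.8, 12.4, 38.3 and 10.1 CPM in WT0 PBS, ERG-245, WT6, KO7 and KO3. All 3 were low in WT6 and KO3, as were the erythroid markers (12124 and 11221 CPM); their part in these results was not tested.

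Among 10 exchange factors and BAG proteins, 4 were higher and 4 lower with ERG-245, 4 higher and 5 lower in KO7, and 6 higher and 1 lower in KO3. Bag1, which couples HSP70 to the proteasome, was at 112 CPM in WT0 PBS and 176 with ERG-245 (log2 0.66, edgeR adjusted p = 7.3e-31). Bag3, an HSF1 target that links HSP70 to small heat shock proteins, was at 21.6 and 16.1 CPM (log2 -0.42, adjusted p = 3.87e-07), and higher in KO3 than in WT6 (log2 0.53, adjusted p = 6.99e-09) but lower in KO3 than in WT0 PBS (log2 -0.42, adjusted p = 2.19e-07). St13, the HIP cochaperone of HSP70, was at 130.1 CPM in WT6, 91.5 in KO7 (log2 -0.51, adjusted p = 2.67e-25) and 154 in KO3 (log2 0.25, adjusted p = 3.08e-12).

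Of 20 HSP90 cochaperones, 7 were higher and 6 lower with ERG-245, 3 higher and 10 lower in KO7, and 11 higher and 3 lower in KO3. Chordc1, an HSP90 cochaperone and HSF1 target, was lower in all 3: 85.9 CPM in WT0 PBS and 58.9 with ERG-245 (log2 -0.55, edgeR adjusted p = 3.89e-20), and 112 in WT6, 76.3 in KO7 (log2 -0.55, adjusted p = 1.25e-22) and 91.4 in KO3 (log2 -0.29, adjusted p = 3.82e-11). Against WT0 PBS it was higher in KO3 (log2 0.09, adjusted p = 0.0352). Fkbp4, the immunophilin of HSP90-bound steroid receptors, was at 243 CPM in WT6, 181 in KO7 (log2 -0.42, adjusted p = 4.31e-24) and 302 in KO3 (log2 0.32, adjusted p = 1.01e-18). Rpap3, a scaffold of the R2TP complex that works with HSP90, was at 39.9 CPM in WT0 PBS, 156 with ERG-245 (log2 1.96, adjusted p = 1.07e-55), while WT6, KO7 and KO3 had 36.5, 33.6 and 43.9 CPM.

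The cytosolic chaperonin CCT, which folds actin and tubulin, went mostly the same way as the mitochondrial chaperonin in the 3 main comparisons. All 8 subunit genes were higher with ERG-245 (median log2 0.23), 1 was higher and 5 lower in KO7 (median -0.12), and all 8 were higher in KO3 (median 0.19) against WT6. Against WT0 PBS, 1 was higher (Cct2) and 4 lower in KO7, and 6 were higher and 0 lower in KO3. In WT6 against WT0 PBS the likeness was absent: 4 were higher and 4 lower (median 0.002), while Hspd1 and Hspe1 were both lower. Cct7 was at 369 CPM in WT0 PBS and 471 with ERG-245 (log2 0.35, edgeR adjusted p = 1.09e-23). Cct6a was at 319 CPM in WT6, 287 in KO7 (log2 -0.15, adjusted p = 6.47e-08) and 409 in KO3 (log2 0.36, adjusted p = 4.76e-23). Of 6 prefoldin subunits, which deliver clients to CCT, 4 were higher and 0 lower with ERG-245, 2 higher and 3 lower in KO7, and 4 higher and 1 lower in KO3.

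Of 15 other mitochondrial chaperones and proteases, 12 were higher and 2 lower with ERG-245 (median log2 0.25), 4 higher and 8 lower in KO7 (median -0.15), and 9 higher and 0 lower in KO3 (median 0.12). Htra2, a protease of the intermembrane space, was at 77.1 CPM in WT0 PBS and 113 with ERG-245 (log2 0.55, edgeR adjusted p = 3.64e-23). Hspa9, the mitochondrial HSP70 mortalin, was at 357 CPM in WT6, 300.3 in KO7 (log2 -0.25, adjusted p = 2.55e-15) and 389.7 in KO3 (log2 0.12, adjusted p = 3.32e-06). Trap1, the mitochondrial HSP90, was lower in KO7 (146 to 117 CPM, log2 -0.32, adjusted p = 7.62e-16). Of 8 tested genes of the other HSP70 family, 3 were higher and 2 lower with ERG-245, 1 higher and 5 lower in KO7, and 1 higher and 4 lower in KO3. Of 6 tested small heat shock proteins outside the members, 2 were higher and 2 lower, 3 higher and 1 lower, and 0 higher and 1 lower in the same comparisons. These list counts for the knock-outs are against WT6, and some turn against WT0 PBS: in KO3 the other HSP70 family then had 4 higher and 1 lower and the HSP40 list 5 higher and 3 lower, and in KO7 the small heat shock proteins had 2 higher and 3 lower and prefoldin 2 higher and 1 lower.

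**Figure D4:**
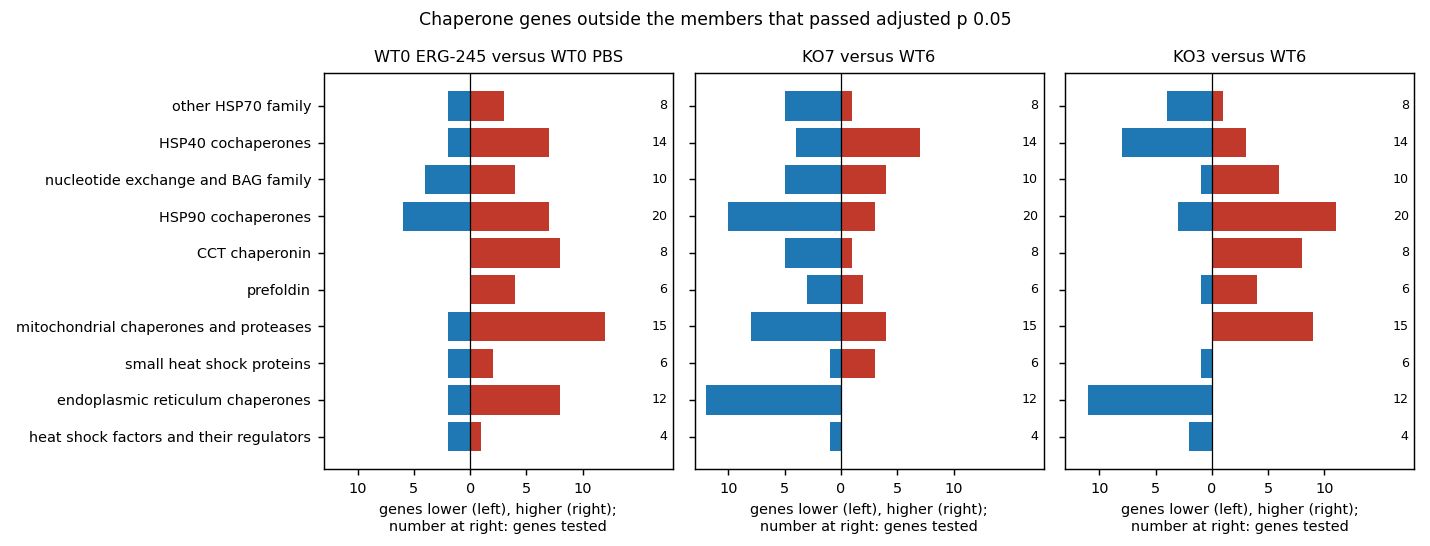
Number of chaperone genes outside the 10 members that passed an adjusted p of 0.05, lower to the left (blue) and higher to the right (red) of 0, by list and comparison; the number of genes tested is at the right of each row. All 8 CCT genes are on the higher side with ERG-245 and in KO3, and 5 of 8 on the lower side in KO7. Some genes are counted in several lists.

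Across the 15 libraries, Pearson's r of log2 CPM (prior count 2) described which members had similar patterns; the libraries share 5 groups, so r mostly reflects group means. Hsp90aa1 and Hspe1 had r = 0.933, Hspd1 and Hspe1 0.914, and Hspd1 and Hsp90ab1 0.905. Hsph1 and Dnajb1 had r = -0.844 and Hspa8 and Hspb1 -0.727. The genes most like Hspd1 among 15947 others were Cct8 (r = 0.99), Rab11fip4 (0.986) and Ipo5 (0.985), with Hspe1 at rank 126. Those most like Hsp90aa1 were Nasp (0.965), Pspc1 (0.963) and Rps27l (0.96), and Hspe1 came at rank 17. Dnajb1 was most like Pira2 (0.981), Pnpla2 (0.977) and Lrg1 (0.97), Hspb1 most like She (0.965), Thbd (0.964) and Capn1 (0.963), and Hsph1 most like Ppp1r12a (0.964), Cd22 (0.958) and Bptf (0.958). Hsp90ab1 was most like Rpl17 (0.988), Cibar1 (0.987) and Thra (0.987), and Hspa8 most like Klhl9 (0.978), Anxa6 (0.976) and Angptl2 (0.976). The low-count genes had weaker matches, Tmem9 (0.894), Nln (0.887) and Trf (0.887) for Hspa1a and Car15 (0.875), Orai1 (0.87) and Slc22a13b (0.864) for Hspa1b.

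When counts were summed per leukemia and the 2 knock-outs set against WT0 PBS and WT6, with the leukemia as the unit (2 against 2), edgeR called 0 of 10 members and 0% of 17226 genes. At an unadjusted p under 0.05 edgeR had 226 genes and 0 members, and DESeq2 called 43 genes at an adjusted p under 0.05 and 357 unadjusted. The largest member difference was that of Hspa1a, at 1.5 and 0.873 CPM in KO7 and KO3 against 0.387 in WT0 PBS and 0.489 in WT6 (log2 1.43, SE 0.6, edgeR adjusted p = 1). Hsph1, at 60.6 and 68.5 against 78 and 80.4 CPM, had log2 -0.30 (SE 0.17, adjusted p = 1). Hspb1 had log2 1.27 (SE 1.3, adjusted p = 1), since its 2 knock-outs were at 3.13 and 0.127 CPM around wild types of 0.71 and 0.631. For Hspa1a, Hspa1b and Hsph1 both knock-outs lay on the same side of both wild types, a description chosen after the values were seen. The share of all genes that do so was not counted. By library, Hspa1b did not pass in either knock-out against either wild type (edgeR adjusted p = 0.165 to 0.7). The biological coefficient of variation was 41.9% between leukemias and 2.18% between libraries.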

How the data were processed

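Gene-level read counts of 15 libraries of leukemic T cells from mouse spleen were used as deposited. The authors trimmed reads with Trim Galore, aligned them with STAR to mm10 and used Subread and DESeq2, per the submitters' processing notes. Per the file headers, featureCounts 2.0.1 made the counts with a minimum overlap of 25 bases and strand setting 2, and none of its 15 commands had the option for multi-mapping reads. The deposited table also gives gene length in bases, the other unit used here, from which the level per kb was computed. Of 39836 lines, 39827 genes were read, and 9 lines were broken; 39743 genes matched a symbol. There were 0 columns of samples outside the series.

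Groups came from the labels. All 15 libraries were fitted together with edgeR 4.0.16 (TMM factors, filterByExpr, quasi-likelihood test, Benjamini-Hochberg adjustment over all genes tested, threshold 0.05), in R 4.3.3 with limma 3.58.1; DESeq2 1.42.0 was an alternative. Total counts were 17441292 to 28902573 per library, and CPM was computed on TMM-adjusted totals of 17339762 to 30076304. Summed counts per leukemia were fitted in the same way (2 against 2). In simulated data for ERG-245 against PBS with 200 of 15512 genes changed 1.5-fold, 87% were recovered and 7.45% of calls were false.

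The members and gene lists were chosen with earlier results of these data known. Pathway genes were named by the rule of up to 4 per list and comparison that passed the threshold, with the largest changes at a mean of at least 5 CPM. Bcat1, Hsf1, Hsf2, the first 3 genes of a marker list and the 3 genes most like each member could also be named. The genes most like Hspe1 are not reported here. Some genes named for one comparison are given with their values in another. Promoter windows are RefSeq's (GRCm38.p6). Shared 50-base words were counted over GENCODE transcripts. Alternatives were DESeq2, RLE factors, no low-count filter, a fit of the compared groups alone, totals without erythroid, B-cell and immunoglobulin genes, the replicate block and each library left out.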

Additional observations from a re-analysis of the deposited data

Results flagged for a closer look

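For 6 members the effects of the 2 knock-outs against WT6 differed in sign, and the difference, which equals KO3 minus KO7, passed edgeR's test. That test passed for 70.7% of all genes, and the share of all genes that also differ in sign was not counted. It was -4.56 (log2) for Hspb1, with effects of 2.28 in KO7 and -2.28 in KO3 (adjusted p = 9.89e-18). It was 0.33 for Hsp90aa1 (-0.27 and 0.06, adjusted p = 2.5e-18) and 0.37 for Hspa8 (-0.23 and 0.14, adjusted p = 5.2e-26). Hsp90ab1 differed by 0.52 (-0.07 and 0.45, adjusted p = 2.15e-35), Hspd1 by 0.52 (-0.27 and 0.25, adjusted p = 3.67e-32) and Hspe1 by 0.62 (-0.24 and 0.38, adjusted p = 1.71e-30). The opposite sign is uncertain where 1 effect was small. The KO3 effect on Hsp90aa1 lost its call with DESeq2 (adjusted p = 0.206 against WT6, 0.19 against WT0 PBS). The KO7 effect on Hsp90ab1 lost its call when edgeR fitted KO7 and WT6 alone (adjusted p = 0.135).

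Set against WT0 PBS, 5 of these genes again had effects of opposite sign, and the differences are the same numbers because the shared control drops out: -4.56 for Hspb1 (2.11 and -2.45), 0.33 for Hsp90aa1 (-0.26 and 0.07), 0.37 for Hspa8 (-0.13 and 0.24), 0.52 for Hspd1 (-0.41 and 0.10) and 0.62 for Hspe1 (-0.50 and 0.11). Each knock-out is 1 leukemia, so the difference between them and a difference between 2 leukemias of one genotype cannot be told apart.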

How the results depend on the processing

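Of the members' log2 changes in the 7 library comparisons, 408 kept their side of the threshold under alternatives other than leaving out a library. Under these, 10 lost the call. With a library left out 400 kept their side, 19 lost the call and 1 gained it. No direction of a called value turned. Direction was not checked for values without a call, and some changed sign: Hspb1 in WT6 against WT0 PBS ranged from -0.51 to 0.11. In KO3 against WT0 PBS 1 member (Hsph1) was lower when the 2 groups were fitted alone. Hspb1 did not pass the low-count filter in that fit and so was not tested. With a library left out 3 to 5 members were higher in KO3 against WT0 PBS (3 without WT0 PBS replicate 2). In WT6 against WT0 PBS 1 to 2 were higher (2 without WT6 replicate 3). Across leukemias DESeq2 called 19 genes higher and 24 lower, and the fit with no low-count filter 3 and 5; with a leukemia left out 0 to 4 were higher and 0 to 3 lower (3 lower without WT0 PBS, 4 higher and 3 lower without WT6). The summed Hspa1a and Hspa1b log2 change in KO3 against WT6 missed the threshold with DESeq2 (0.44, adjusted p = 0.089) and no low-count filter (0.43, adjusted p = 0.07), and ranged from 0.34 to 0.51 with a library left out. It ranged from 0.32 to 0.52 in KO3 against WT0 PBS, and from -0.48 to -0.31 in KO3 against KO7, where it passed with RLE factors (-0.40, adjusted p = 0.0497) and without KO7 replicate 3 or KO3 replicate 1. The cause was not tested. Libraries with the same replicate number did not deviate together (r -0.046 to 0.032 over 30 pairs), so the numbers do not pair them. With the replicate block 4 members were higher and 3 lower with ERG-245, where Hspb1 lost its call (adjusted p = 0.0544), and no other member's call changed. Depth limits Hspa1a, Hspa1b and Hspb1, with 1 to 65 counts per library.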

Other observations

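The chaperones of the endoplasmic reticulum were lower in both knock-outs than in WT6. Of 12 such genes, 0 were higher and 12 lower in KO7 against WT6 (median log2 -0.72), and 0 higher and 11 lower in KO3 (median -0.50). With ERG-245 8 were higher and 2 lower (median 0.17). Hsp90b1, the HSP90 of this compartment, was at 463 CPM in WT0 PBS, 519 with ERG-245 and 1066 in WT6, 421 in KO7 and 637 in KO3. It was lower than WT6 in KO7 (log2 -1.34, edgeR adjusted p = 1.3e-59) and KO3 (log2 -0.74, adjusted p = 6.16e-43). Pdia4, a disulfide isomerase, was at 90.9, 91.8, 228, 87.7 and 139 CPM in the same order of groups.

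WT6 stood apart from the other wild type: 11 of the 12 genes were higher and 0 lower in WT6 than in WT0 PBS (median 0.95). Against WT0 PBS, 6 were higher and 4 lower in KO7, and 11 higher and 0 lower in KO3. The list's median in KO7 and KO3 was 0.10 and 0.40 against WT0 PBS, so its sign depended on the wild type used. B and plasma cell markers, cells rich in this compartment, were also highest in WT6 (8726 CPM against 1435 in WT0 PBS, 4165 in KO7 and 3006 in KO3); their part in the result was not tested.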
